A study of Mus musculus with 17 samples.

Results

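Klrg1, Klrd1, Klrk1, Klrc1, Klrc2, Klre1 and Klrb1c encode lectin-like receptors that are best known from natural killer (NK) cells and that CD8 T cells also make. Their 7 rows were taken by gene symbol from a deposited table of 27240 genes. All 7 passed the filter on low counts, which kept 20137 genes. The 17 libraries were bulk RNA sequencing of CD8 T cells sorted by flow cytometry from mouse lung tumours, and mice lacking PD-L1 in the endothelium (PDL1DEC mice, called KO in the labels) were set against WT mice. The groups were KO core with 6 libraries, WT core with 5, KO rim with 4 and WT rim with 2, where core cells came from macroscopic nodules and rim cells from parenchymal nodules. The labels call the cells core-enriched and rim-enriched, shortened here to core and rim. The series title names non-small cell lung cancer, and the labels give no strain, age, tumour model or driver of the endothelial deletion. A WT core library is labelled as a pool, and nothing says that the other libraries came from separate animals, so the p-values measure the spread between libraries only.

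In mice, Klrd1 (CD94) forms a dimer with a partner of the NKG2 family, and the dimers bind Qa-1, the product of H2-T23. NKG2A, from Klrc1, carries an inhibitory tyrosine motif that recruits phosphatases such as the product of Ptpn6, whereas NKG2C, from Klrc2, is an activating partner that signals through the adaptor Tyrobp. NKG2D, from Klrk1, signals through Hcst and binds stress-induced ligands. KLRG1 binds cadherins and marks effector CD8 T cells that have divided many times, and Klre1 pairs with the products of Klri1 and Klri2. Klrb1c encodes NK1.1, a marker of NK cells in some mouse strains that activated CD8 T cells can also carry. NKG2A has been studied as an inhibitory receptor of tumour-infiltrating CD8 T cells.

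All 7 genes lie on chromosome 6 (GRCm38, RefSeq positions). Klrg1 spans 122270596 to 122282833 and Klrb1c 128778485 to 128788641. The other 5 lie close together in the NK gene complex, with Klre1 at 129559365 to 129585828, Klrd1 at 129588092 to 129598775, Klrk1 at 129610323 to 129623903, Klrc2 at 129649602 to 129660737 and Klrc1 at 129666015 to 129682852. Klrc3, a sister gene of Klrc2 that is not among the 7, lies between Klrk1 and Klrc2 at 129636263 to 129643511. Klre1 and Klrd1 are on the plus strand and the others on the minus strand.

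The receptors differ in whether they carry an inhibitory tyrosine motif, and a script looked for it in the first 50 codons of the longest reading frame of each protein-coding GENCODE M21 transcript. The motif was valine, isoleucine, leucine or serine, any residue, tyrosine, any 2 residues, then valine, isoleucine or leucine. It was found in Klrc1, Klrg1 and Klrb1c, and not in Klrd1, Klrk1, Klrc2, Klrc3 or Klre1. A match shows the residues only, and not that a receptor, such as the product of Klrb1c, is inhibitory. In Klrc1 the tyrosine is codon 8, and in Klrg1 it is codon 7. The coding bases around it are shown for Klrc1 and Klrg1, whose proteins are known inhibitory receptors, with the tyrosine codon in capitals:
Klrc1: gaacgcgtcaccTATgcagaactgaaggtg
Klrg1: gacagctctatcTATtcaacactagagctg

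The bases around the start of Klrc2 and of Klrc3 are nearly the same. RefSeq start regions of 300 bases (GRCm38.p6, 250 before and 50 after the start) were at hand for 5 of the 7 members and for Klrc3, and not for Klrg1 and Klrd1. The Klrc2 region at chr6:129660507-129660806 and the Klrc3 region at chr6:129643239-129643538, both on the minus strand, had 296 identical bases in a global alignment, or 98.7 percent, with 3 mismatches and 2 gap positions. A second listed Klrc2 start gives 85.3 percent. The Klrc1 region shared 48.7 percent with that of Klrc3. This is near the share of other pairs aligned the same way, such as Klrc1 with Klre1 (48.3 percent) and Klrk1 with Klrc3 (48 percent). Whether these sequences bear on the levels of Klrc2 and Klrc3 was not tested. The Klrc2 and Klrc3 regions are shown with the bases that differ between them in capitals:
Klrc2: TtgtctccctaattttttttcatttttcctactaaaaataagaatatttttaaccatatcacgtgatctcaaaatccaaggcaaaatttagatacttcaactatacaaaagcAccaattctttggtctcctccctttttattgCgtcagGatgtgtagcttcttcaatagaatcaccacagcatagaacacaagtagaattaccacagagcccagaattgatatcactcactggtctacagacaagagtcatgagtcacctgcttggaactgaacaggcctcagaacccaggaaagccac
Klrc3: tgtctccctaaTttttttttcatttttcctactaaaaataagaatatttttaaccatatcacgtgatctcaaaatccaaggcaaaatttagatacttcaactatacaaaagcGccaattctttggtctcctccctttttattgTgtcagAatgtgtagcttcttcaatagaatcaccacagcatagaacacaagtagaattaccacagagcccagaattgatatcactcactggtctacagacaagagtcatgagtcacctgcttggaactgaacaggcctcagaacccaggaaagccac

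Of 7 short motifs searched on both strands, the RUNX letters TGTGGT stood in the regions of all 5 members and of Klrc3, against 16.8 percent of 32851 start regions of the same length. In Klre1 this held for 1 of its 2 listed starts. The letters TGANTCA (AP-1) stood in Klrk1, Klrc2 and Klrc3, against 7.81 percent, and CTTTGA (TCF/LEF) in Klrk1, against 16 percent. The letters GGTGTGA (T-box, 3.98 percent of all regions), AGGAAGT (ETS, 9.35 percent), CAGCTG (E-box, 16.3 percent) and TTCNNNGAA (STAT, 8.3 percent) were in none of the 5. A match is a description of the letters only.

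Totals ran from 21767045 to 32566456 counts per library, and every member had reads in all 17 libraries, the fewest being 44 reads of Klrb1c in WT core H719. Both defining genes of CD8 T cells were high in all libraries, with Cd8a between 758 and 1980 CPM (counts scaled to library size) and Cd3e between 591 and 1360 CPM. Genes of other cells were also present: Cd4 at 3.73 to 140 CPM, the macrophage gene Lyz2 at 321 to 5150 CPM and the NK cell gene Ncr1 at 0.12 to 26.3 CPM. Summed over the 10 NK cell markers, levels were 259 to 817 CPM in KO core, 258 to 793 CPM in WT core, 339 to 564 CPM in KO rim and 441 to 458 CPM in WT rim. Most of this sum came from Fcer1g, Fcgr3 and Txk, which myeloid cells or T cells also express and which averaged 121, 29.9 and 258 CPM in WT rim. Klra4, Klra8 and Cma1 reached at most 10.1, 2.86 and 3.83 CPM in any library, and Klra1 and Klra9 had medians of 13.2 and 11.7 CPM. Libraries also differed in sex, read from Xist and Y-linked genes. KO core F322 and O and KO rim F322 and O had 0 CPM of Xist and 449 to 511 CPM of Y-linked genes. The WT core pool had 34.9 and 103 CPM of these, and the other 12 libraries, both WT rim libraries among them, were female. Sex thus went partly with genotype in core and in rim. Of the members' values in female libraries only, those given below are ones that changed sign. In such bulk samples, fewer cells with a receptor and less RNA per cell cannot be told apart.

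Levels between genes were compared per kilobase, as CPM divided by the length of all exons of protein-coding GENCODE transcripts. Klrd1, the shared partner, was the highest of the 7 in 16 of 17 libraries, with 395 ± 97.5 CPM per kilobase (SD, n = 17). Klrc1 followed at 176 ± 87.1 CPM per kilobase and was highest in the remaining library. Klrk1 (85.8 ± 29) and Klre1 (83.7 ± 29.6 CPM per kilobase) differed by less than their SD. Klrg1 reached 49 ± 48.5, Klrc2 11.2 ± 6.53 and Klrb1c 7.21 ± 5.92 CPM per kilobase. The exon length of Klrc2, 3214 bases, includes a long transcript, and a shorter one in use would raise its value. Per length, the inhibitory NKG2 gene Klrc1 was above the activating Klrc2 in the mean of each of the 4 groups. Klrc1 averaged 176 ± 80.8 CPM per kilobase in KO core, 132 ± 45.7 in WT core, 197 ± 19.6 in KO rim and 246 ± 241 in WT rim. Klrc2 averaged 9.35 ± 3.89, 15.1 ± 5.85, 7.34 ± 6.27 and 14.5 ± 13.2 CPM per kilobase in the same groups. Its sister gene Klrc3 lay between them, at 54.4 ± 39.1, 68.3 ± 22.3, 25.7 ± 28.4 and 48.9 ± 49 CPM per kilobase.

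**Figure D1:**
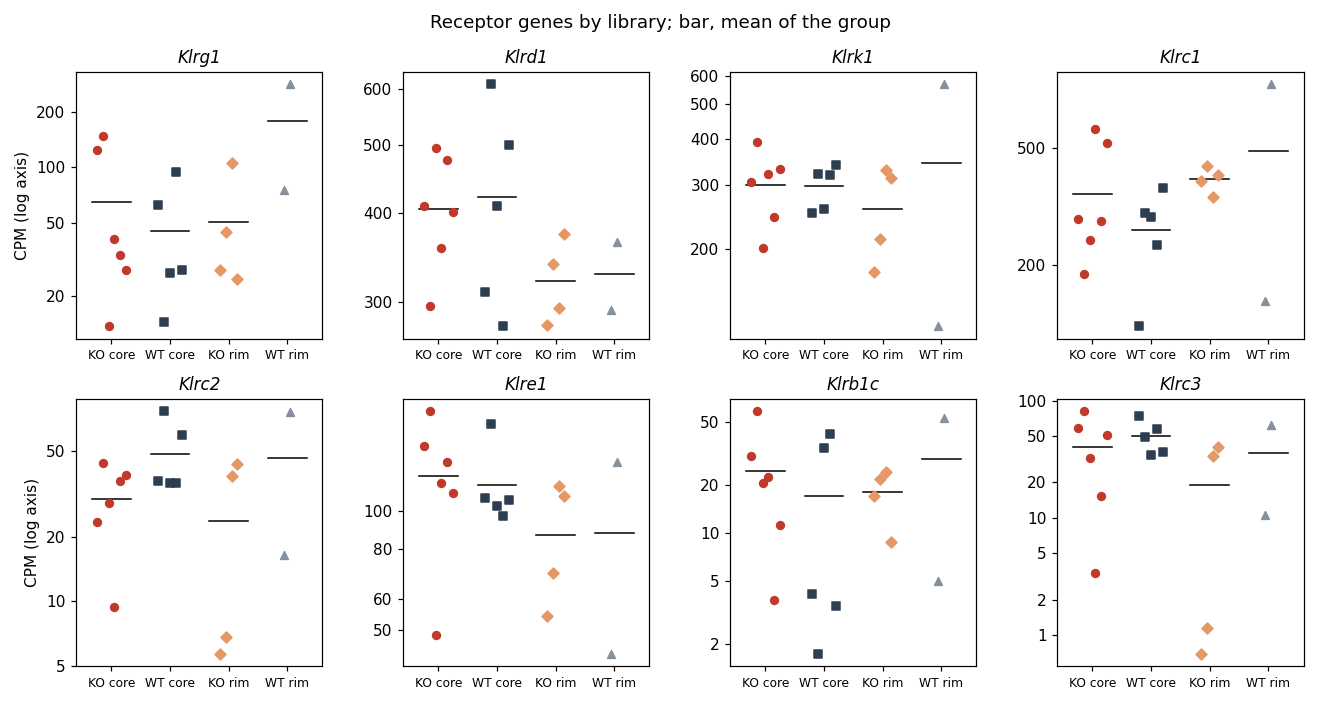
Level of each receptor gene, and of the sister gene Klrc3, in every library (CPM, log axis), by group, with the bar at the group mean. The KO and WT points overlap in each panel, and for 6 of the 7 receptor genes, Klrd1 being the exception, the 2 WT rim libraries lie at least 3.06-fold apart.

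Klrd1 was the steadiest member. It ranged from 296 to 495 CPM in KO core (median 406), and was 310, 609, 410, 277 and 500 CPM in WT core libraries F164, H719, H873, H876 and the pool. In KO rim it was 278 in F15, 339 in F322, 294 in F86 and 374 CPM in O, and in WT rim 292 in H874 and 365 CPM in H877. The groups overlapped, and its SD of log2 CPM within groups, 0.331, was near the median of all genes, 0.352. Klrc1 was 186 to 580 CPM in KO core (median 284) and 123, 301, 291, 233 and 364 CPM in WT core, in the same order of libraries. It was 385, 434, 341 and 403 CPM in KO rim F15, F322, F86 and O, a narrow range, and 150 and 826 CPM in WT rim H874 and H877, which held its next-to-lowest and its highest value of all libraries.

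Klrc2 was much lower in some libraries than in others. It ranged from 9.37 to 43.9 CPM in KO core (median 32.4), and was 36.2, 76.8, 35.4, 35.5 and 59.5 CPM in WT core F164, H719, H873, H876 and the pool. In KO rim it was 5.69 in F15, 6.77 in F322, 38.4 in F86 and 43.5 CPM in O, and in WT rim 16.5 in H874 and 76.4 CPM in H877. Its 3 lowest libraries, KO core F322, KO rim F322 and KO rim F15, lay between 5.69 and 9.37 CPM, against 16.5 to 76.8 CPM in the other 14. The sister gene Klrc3 was also lowest in these 3, at 3.35 CPM in KO core F322, 1.14 in KO rim F322 and 0.689 in KO rim F15, against 10.5 to 81.2 CPM in the other 14. Klrc1 was not low there, at 385 to 580 CPM, and Klrd1 (278 to 357 CPM) and Klrk1 (172 to 321 CPM) lay within the range of the other libraries. The identifier F322 occurs in KO core and KO rim, and the labels do not say that it marks an animal.

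The number of Klrc1 reads per Klrc2 read, which does not depend on library scaling, was 61.8 in KO core F322, 63.9 in KO rim F322 and 67.3 in KO rim F15. In the other 14 libraries it was 3.4 to 13.4. The mean log2 ratio was 3.57 ± 1.3 in KO core (SD, n = 6), 2.42 ± 0.534 in WT core (n = 5), 4.61 ± 1.65 in KO rim (n = 4) and 3.31 ± 0.174 in WT rim (n = 2). KO core exceeded WT core by 1.15 (two-sided exact permutation p = 0.0693, adjusted over the 4 comparisons 0.19), without KO core F322 by 0.68 (exact p = 0.103, unadjusted), and without KO core F318 by 1.45 (exact p = 0.0159, unadjusted). KO rim exceeded WT rim by 1.3 (exact p = 0.4, the smallest possible being 0.0667). The difference between core and rim was -1.03 in KO (exact p = 0.314) and -0.89 in WT (exact p = 0.0952). None passed the adjustment. Reads of these genes are uncertain, since 38.5 percent of the 50-base windows of Klrc1 transcripts, 29.4 percent of those of Klrc2 and 38.6 percent of those of Klrc3 also occur in another of the 3, and how the counting treated such reads is not given in the sources used here.

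**Figure D2:**
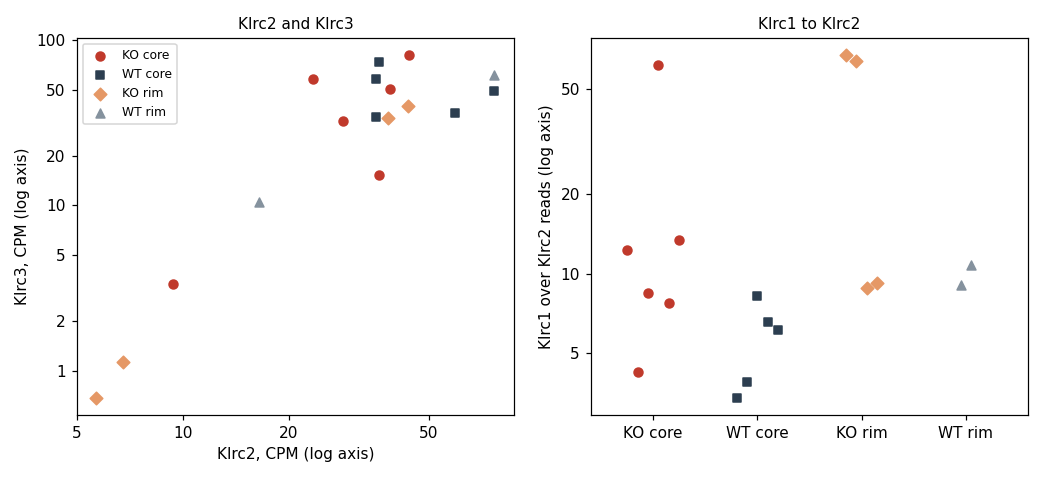
Left, Klrc2 and Klrc3 in each library (CPM, log axes). Right, Klrc1 reads over Klrc2 reads by group (log axis). The 3 libraries with the lowest Klrc2 (5.69 to 9.37 CPM) have the lowest Klrc3 and a ratio of 61.8 to 67.3, and all other libraries have a ratio of 3.4 to 13.4.

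Klrk1 was 201 to 394 CPM in KO core (median 313) and between 250 CPM in F164 and 340 CPM in the pool in WT core. In KO rim it was 172, 212, 329 and 313 CPM in F15, F322, F86 and O, and in WT rim 122 in H874 and 569 CPM in H877, the lowest and the highest of all 17. Klre1, whose product forms heterodimers with those of Klri1 or Klri2, was 48.6 to 179 CPM in KO core (median 125) and 108, 166, 103, 97 and 107 CPM in WT core. It was 54.2, 69.8, 116 and 109 CPM in KO rim, and 43.6 and 133 CPM in WT rim H874 and H877. Klrk1 and Klre1 were high and low in much the same libraries (r = 0.82 and rho = 0.69 over 17 libraries, r = 0.83 about the group means, and 0.65 without the 2 libraries farthest from the Klrk1 median).

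Klrg1 and Klrb1c varied most. Klrg1 was 13.7 to 149 CPM in KO core (median 37.3) and 62.6, 14.5, 26.7, 94.7 and 27.7 CPM in WT core F164, H719, H873, H876 and the pool. In KO rim it was 27.7 in F15, 44.9 in F322, 106 in F86 and 24.8 CPM in O, and in WT rim 75.3 in H874 and 284 CPM in H877, its highest value. Klrb1c was 3.79 to 58.3 CPM in KO core (median 21.6) and 4.12, 1.75, 34.2, 42.2 and 3.49 CPM in WT core. It was 17.1, 22, 24.3 and 8.79 CPM in KO rim, and 4.99 and 53.1 CPM in WT rim H874 and H877. Within WT core the highest Klrb1c value was 24.1-fold the lowest. The SD of log2 CPM within groups was 1.59 for Klrb1c, 1.17 for Klrg1 and 1.04 for Klrc2, larger than in 97.3, 94.8 and 93.1 percent of 10404 genes (those averaging 5 CPM or more). For Klrc1 (0.713), Klre1 (0.597) and Klrk1 (0.543) these shares were 84.9, 78.9 and 74.9 percent, and for Klrd1 46.2 percent.

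Of 21 pairs of neighbours in the order of the 4 group means, 20 differed by less than the larger of the 2 SDs. The exception was Klrd1, at 406 ± 73.7 CPM in KO core (n = 6) and 328 ± 51.5 CPM in WT rim (n = 2). Group means of Klrg1 were 65 ± 57 CPM in KO core, 45.2 ± 32.9 in WT core, 50.8 ± 37.7 in KO rim and 180 ± 148 CPM in WT rim. Those of Klrc1 were 349 ± 160, 262 ± 90.7, 390 ± 38.9 and 488 ± 478 CPM in the same groups.

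The first comparison asked whether the receptors differed between KO and WT CD8 T cells of the core groups. A gene was called where the Benjamini-Hochberg adjusted p of edgeR's quasi-likelihood test, over all genes tested, was under 0.05. No member was called (adjusted p = 1 for all 7), nor was any other gene (0 percent). At an unadjusted p under 0.05 stood 0 members and 6.18 percent of all genes, and DESeq2 called 0 members and 12 genes. The log2 fold change (KO over WT) was 0.41 for Klrc1 (SE 0.379, 95% interval -0.39 to 1.22) and -0.69 for Klrc2 (SE 0.535, -1.83 to 0.44). Klrg1 had 0.52 (SE 0.64, -0.83 to 1.88) and Klrb1c 0.51 (SE 0.815, -1.21 to 2.24), wide intervals that span 0. Klrd1 had -0.054 (-0.45 to 0.34), Klrk1 0.009 (-0.6 to 0.62) and Klre1 0.077 (-0.59 to 0.74). As folds, the interval of Klrd1 ran from 0.732 to 1.27 and that of Klrk1 from 0.66 to 1.54. The median over the 7 was 0.08, against -0.01 over all genes, and the groups of every member overlapped, whereas 0.397 percent of all genes had groups apart.

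In the rim groups all 7 log2 fold changes (KO over WT) were negative, with a median of -0.43 against 0.011 over all genes, and none passed. Both edgeR and DESeq2 called 0 members, and at an unadjusted p under 0.05 stood 0 members by either tool. DESeq2 called 272 of all genes. The share of all genes called by edgeR was 0 percent, and 7.35 percent had an unadjusted p under 0.05. Klrg1 had the largest difference, 50.8 ± 37.7 CPM in KO rim (n = 4) and 180 ± 148 CPM in WT rim (n = 2), or -1.82 on the log2 scale (SE 0.872, 95% interval -3.67 to 0.02, adjusted p = 0.69 by edgeR). Klrc2 had -0.98 (SE 0.746), Klrb1c -0.69 (SE 1.13), Klrk1 -0.43 (SE 0.408) and Klrc1 -0.32 (SE 0.532). Klrd1, at -0.032 (SE 0.266), and Klre1, at -0.02 (SE 0.45), were close to 0. The groups of every member overlapped, whereas 13.7 percent of all genes had groups apart. Genes of other cells varied between these libraries too, with no call: the 6 lung epithelium and tumour genes summed to 63 to 561 CPM in KO rim and 30.3 to 142 CPM in WT rim, and the 8 macrophage genes to 538 to 6600 CPM in KO rim and 1010 to 1660 CPM in WT rim. All 6 epithelial genes (median log2 fold change 2.79) and all 8 macrophage genes (median 1.97) were positive. C1qa, C1qb and C1qc were higher in every KO rim library than in both WT rim libraries, with log2 fold changes of 2.76, 2.87 and 2.93 and adjusted p of 0.488, 0.38 and 0.379 by edgeR. Their part in the receptor values was not tested.

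These values depend on which WT rim library is kept. H877 exceeded H874 by 5.5-fold in Klrc1, 4.65-fold in Klrk1, 4.64-fold in Klrc2, 3.77-fold in Klrg1, 3.06-fold in Klre1, 10.6-fold in Klrb1c and 1.25-fold in Klrd1. The median gap between these libraries over 10404 genes was 1.34-fold. The gap of Klrd1 was larger than that of 40.5 percent of genes, and the gaps of the other 6 were larger than those of 90.8 to 98 percent. Without H877 the log2 fold change of KO over WT in rim was 1.39 for Klrc1, 1.08 for Klrk1, 1.02 for Klre1, 0.53 for Klrc2, 1.87 for Klrb1c, 0.15 for Klrd1 and -0.55 for Klrg1. Without H874 it was -1.08 for Klrc1, -1.15 for Klrk1, -0.62 for Klre1, -1.7 for Klrc2, -1.56 for Klrb1c, -0.19 for Klrd1 and -2.49 for Klrg1. No member was called in either fit, each of which leaves 1 WT rim library and takes it to vary like the other groups.

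**Figure D3:**
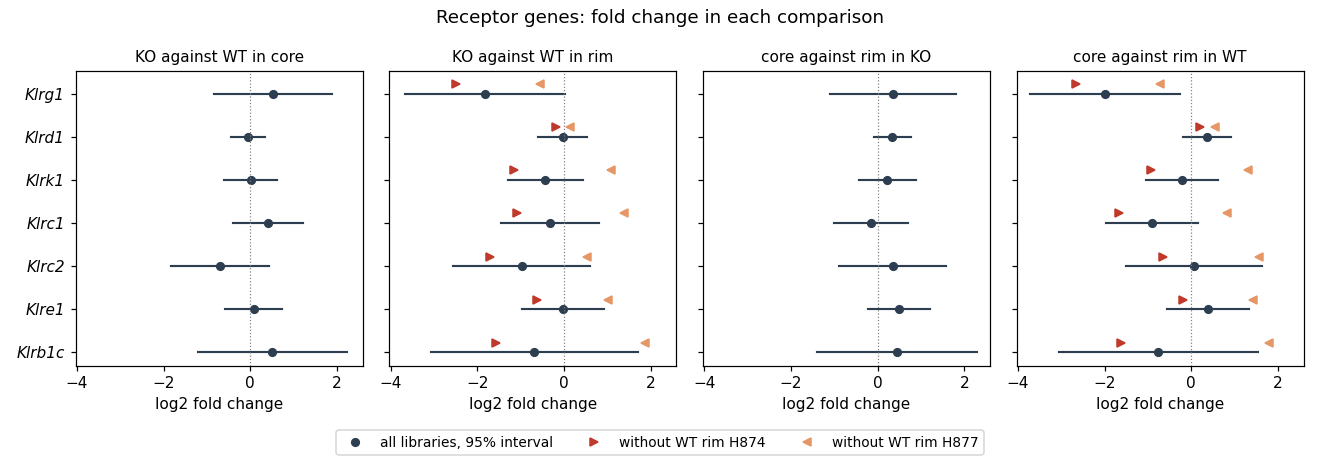
Log2 fold change of each receptor gene with its 95% interval from the fit of all 17 libraries (dots and lines), and, where WT rim enters, the value without WT rim H874 or H877 (triangles). In KO against WT in rim, the value without H874 is negative for all 7 genes, and the value without H877 is positive for 6 of them, Klrg1 being the exception.

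Between core and rim in KO mice, 6 log2 fold changes (core over rim) were positive and 1 negative, and none passed. By edgeR 0 members and 0 percent of all genes were called, with 0 members and 7.95 percent of all genes at an unadjusted p under 0.05, and DESeq2 called 0 members and 33 genes. Klre1 had 0.49 (SE 0.34, 95% interval -0.23 to 1.21), Klrb1c 0.44 (SE 0.873), Klrg1 0.36 (SE 0.683), Klrc2 0.35 (SE 0.578) and Klrd1 0.34 (SE 0.2, -0.09 to 0.76). Klrk1 had 0.22 (SE 0.31) and Klrc1 -0.16 (SE 0.4). The median was 0.35, against 0.029 over all genes. The groups of every member overlapped, whereas 1.6 percent of all genes had groups apart. Between the libraries that carry the identifier F86, core over rim was 0.316-fold for Klrg1 and 0.156-fold for Klrb1c, whereas for F322 and O these ratios ran from 0.917 to 1.29.

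Between core and rim in WT mice, edgeR called 3.86 percent of all genes (777) and none of the 7 members. DESeq2 called 0 members and 1853 genes. Klrg1 alone had an unadjusted p under 0.05, as did 18 percent of all genes: it averaged 45.2 ± 32.9 CPM in core (n = 5) and 180 ± 148 CPM in rim (n = 2), or -1.99 on the log2 scale (SE 0.822, 95% interval -3.73 to -0.25, adjusted p = 0.207 by edgeR). Leaving out rim H877 made this -0.71, and leaving out rim H874 made it -2.65. Klrc1 had -0.9 (SE 0.501), Klrb1c -0.76 (SE 1.08), Klrk1 -0.21 (SE 0.396), Klre1 0.39 (SE 0.444), Klrd1 0.36 (SE 0.262) and Klrc2 0.067 (SE 0.743). Without H877 the values of Klrc1 and Klrk1 were 0.82 and 1.3. The groups of every member overlapped, whereas 19.8 percent of all genes had groups apart, and the median was -0.21 against 0.033.

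The genotype effect in core minus that in rim was largest for Klrg1, at 2.34 (SE 1.09, 95% interval 0.05 to 4.64; adjusted p = 0.646 by edgeR). It was the only member with an unadjusted p under 0.05 for this difference, as had 7.68 percent of all genes, and DESeq2 likewise had 1 member there and called 0 members and 159 genes. By edgeR 0 percent of all genes were called. The values of the other members ran from -0.022 for Klrd1 to 1.2 for Klrb1c. Without WT rim H877 the difference for Klrg1 was 1.06.

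Of the genes that work with these receptors, 10 partner and sister genes were measured, and none was called between KO and WT in core (4 positive and 6 negative, median log2 fold change -0.29) or in rim (7 positive and 3 negative, median 0.56). The adaptor Hcst was 60.7 to 132 CPM and the adaptor Tyrobp, which myeloid cells also express, 33.5 to 500 CPM over the 17 libraries. In KO core over KO rim all 10 were positive, with a median of 0.92 against 0.029 over all genes, and none was called. In WT core over WT rim, 2 of the 10 were higher by edgeR's test, and the median was 1.69 against 0.033 over all genes. Klrh1, a lectin-like receptor gene, averaged 38.4 CPM in WT core and 1.23 CPM in WT rim (log2 fold change 4.95, SE 1.13, adjusted p = 0.024). In KO it averaged 39.5 CPM in core and 19.6 CPM in rim. Klrb1a, a paralog of Klrb1c, averaged 9.94 CPM in WT core and 0.258 CPM in WT rim (log2 fold change 5.25, SE 1.42, adjusted p = 0.0495). Klrh1 lost its call without rim H874 (adjusted p = 0.148 by edgeR) or rim H877 (0.137), with a replicate block, in which the identifiers shared by KO core and KO rim are terms of the fit (0.0517), and in female libraries only (0.0817). Klrb1a lost its call without rim H874 (0.313) and without core F164 (0.0688), H719 (0.0599), H873 (0.0867) or H876 (0.0578). It also lost it with the replicate block (0.0612), in female libraries only (0.0748), with no low-count filter (0.057) and without the libraries with Ncr1 above 5 CPM (0.0727).

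Of 14 ligand genes on the list, 9 were measured and none passed in any comparison. These are RNA levels in the sorted CD8 T cell libraries, and ligands on tumour or other cells were not measured. H2-T23, which encodes Qa-1, was 474 ± 83.6 CPM in KO core and 463 ± 78.7 CPM in WT core, and 481 ± 49.6 CPM in KO rim and 486 ± 80.1 CPM in WT rim. Cdh1, whose cadherin is a ligand of KLRG1, was 17.2 to 362 CPM, and Ulbp1, which encodes a ligand of NKG2D, 1.68 to 14.7 CPM. Cdh1 is also on the list of lung epithelium and tumour genes. None of the 11 signalling genes passed. Ptpn6, the phosphatase that binds inhibitory tyrosine motifs, averaged 776 CPM in KO core and 768 CPM in WT core, a difference of 0.016 on the log2 scale (SE 0.236).

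None of the 10 transcription factor genes passed in any comparison. Tbx21, which encodes the effector factor T-bet, averaged 260 ± 101 CPM in KO core (n = 6) and 123 ± 106 CPM in WT core (n = 5), or 1.08 on the log2 scale (SE 0.532), with an adjusted p of 0.812 by edgeR. A list of 10 genes is called terminal effector genes here. It also holds S1pr1, Klf2 and Il7r, which do not mark terminal effector cells. Of the 10, 1 passed, S1pr1, in WT core against WT rim, where 8 of the 10 were negative (median -1.2). These 8 included S1pr5 (-2.7) and Gzma (-1.28) as well as Il7r (-1.55) and Klf2 (-1.36). The counts on this list therefore do not describe terminal effector cells as such. Between KO and WT in rim, 9 of the 10 were negative (median -0.81) and none passed. S1pr1, a receptor that lets lymphocytes leave tissue, fell to 397 CPM in WT core, against 1520 CPM in WT rim (log2 fold change -1.93, SE 0.307, adjusted p = 0.00492), a call lost without rim H874 (0.131). In KO it averaged 427 CPM in core and 944 CPM in rim (log2 fold change -1.14, SE 0.249), with an adjusted p of 0.572.

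Of the marker lists of other cells, those of macrophages and NK cells held calls, all in WT core against WT rim. C1qb (log2 fold change 3.45, SE 0.848, adjusted p = 0.0328) and C1qc (3.45, SE 0.854, adjusted p = 0.0335), which encode complement proteins of macrophages, were higher in WT core by edgeR. C1qb lost its call without rim H874 (adjusted p = 0.224 by edgeR), rim H877 (0.182) or core H873 (0.0601), with no low-count filter (0.0518) and without the libraries with Ncr1 above 5 CPM (0.29). C1qc lost it under the same settings (0.242, 0.182, 0.0617, 0.0526 and 0.277). Txk, a kinase gene, was lower (-1.36, SE 0.32, adjusted p = 0.0287), and lost the call without rim H874 (0.497), core H719 (0.0559), core H873 (0.0631) or the core pool (0.0506), and in female libraries only (0.0712). It ran against most of its list: 7 of the 10 NK cell markers were positive there (median 0.4), among them Fcgr3 at 1.94 and Klra1 at 1.34, and none of these 7 passed. The lists for B cells, CD4 and regulatory T cells, innate-like T cells, lung epithelium and CD8 identity held no call in any comparison.

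Ncr1, 1 of the 10 NK cell markers, was set beside the receptors. Its log2 CPM had an r of 0.55 with that of Klrg1 over the 17 libraries (rho 0.36). Without the 2 libraries farthest from the Klrg1 median, r was 0.41. Over the 17 libraries r was 0.37 with Klrb1c, 0.35 with Klrk1, 0.3 with Klrc2, 0.27 with Klre1, and -0.35 with Klrd1 and Klrc1. Ncr1, which NK cells express and conventional CD8 T cells mostly do not, was above 5 CPM in KO core F219 and F318, WT core F164 and H876 and WT rim H877. In these 5 libraries Ncr1 was 8.26 to 26.3 CPM and Klrg1 62.6 to 284 CPM, and in the other 12 Ncr1 was 0.12 to 3.05 CPM and Klrg1 13.7 to 106 CPM. Klrb1c was 4.12 to 58.3 CPM in the 5 and 1.75 to 34.2 CPM in the 12, and Klrd1 277 to 410 CPM and 278 to 609 CPM. Among the 10 NK cell markers, Klra8 had reads in 16 and Cma1 in 11 of the 17 libraries, and the other 8 in all 17. In a fit without the 5 libraries, an alternative chosen after seeing the data, KO over WT in rim was 1.37 for Klrc1 and 1.06 for Klrk1, and core over rim in WT was 1.06 and 1.3, with no member called. That fit keeps H874 as the only WT rim library. The part of NK cells in the members' levels was not tested.

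**Figure D4:**
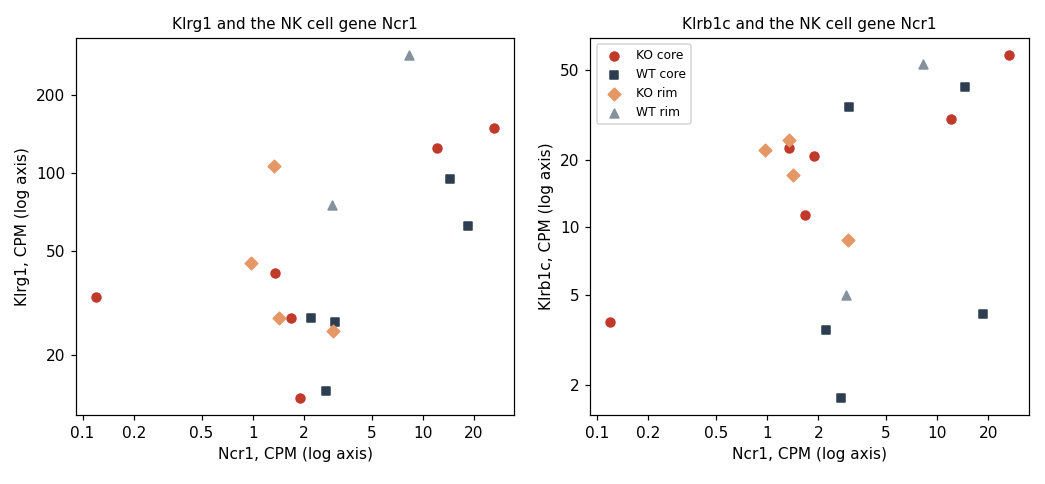
Klrg1 (left) and Klrb1c (right) against the NK cell gene Ncr1 in each library (CPM, log axes). The 5 libraries with Ncr1 of 8.26 CPM or more have Klrg1 of 62.6 to 284 CPM, and Klrb1c of 4.12 to 58.3 CPM.

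For each member the genes most alike in log2 CPM over the 17 libraries are given as a description, since the points share library depth and cell make-up. Klrb1c was most like Klra9, a Ly49 receptor gene of NK cells (r = 0.91, rho = 0.83, and r = 0.92 about the group means), followed by Serinc3 (0.83) and Borcs7 (0.82). Klrg1 was most like Mctp2 (r = 0.91, rho = 0.95), Irf7 (0.91), a factor of the interferon response, and Fam43a (0.9). Klrc2 was most like Klrc3 (r = 0.9, rho = 0.65, and 0.75 without the 2 libraries farthest from the Klrc2 median), then Emp1 (0.8) and BC064078 (0.77). Klrk1 was most like Itgb2, which encodes an integrin chain (r = 0.92, rho = 0.79), Reep5 (0.9) and Plekhf1 (0.89). Klre1 was most like Mien1 (0.9), Lgals1 (0.89) and Tpm4 (0.87). Klrd1 was most like Sumo2 (0.87), Mrps18c (0.84) and Psenen (0.83), and Klrc1 like Rora (0.8), Wdr95 (0.79) and Nbeal2 (0.78). Klrd1 and Klrc1, which encode the chains of one heterodimer, had an r of 0.2 and a rho of 0.16, and Klrg1 and Klrd1 had an r of -0.59 and a rho of -0.53.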

How the data were processed

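The deposited table holds whole-number read counts for each gene symbol, not normalized by the authors. Per the labels' protocols, RNA was taken with a Qiagen RNeasy Micro Kit and libraries with the TruSeq RNA kit. The tools listed in the submitters' processing notes, in no order, are HISAT2, featureCounts, Subread 2.0.0, Bowtie2 2.4.5 and cutadapt 3.2, with the build GRCm38 (mm10). Strandedness is not given in the sources used here, so reads of overlapping antisense genes cannot be told apart.

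From the counts, CPM with TMM factors were computed in R 4.3.3 with edgeR 4.0.16. filterByExpr kept 20137 genes. A robust quasi-likelihood model was fitted to all 17 libraries, 5 contrasts were tested two-sided, and Benjamini-Hochberg adjustment covered the 20137 genes, with a call at an adjusted p under 0.05. SE is the log2 fold change divided by the square root of F, and 95% intervals use the same fit. Likeness used log2 CPM with a prior count of 2. Ratios of Klrc1 to Klrc2 added 0.5 to each count and were tested by exact permutation, adjusted over 4 comparisons. DESeq2 1.42.0, RLE scaling, no filter, female libraries only (by Xist and Y-linked genes), a replicate block and leaving out each library were alternatives. The scripts were tested on simulated data. The members and gene lists were chosen with earlier results of these data known. Named were all members, called list genes, up to 4 others per list by size with at least 5 CPM, and the 3 genes most like each member. Of the list genes so named, many are given only in counts. H2-T23, Hcst and Tyrobp were named for their role after their values were seen. Raet1a, Raet1b, Raet1c, H60a and H60c of the ligand list, and 5 genes of the innate-like T cell list, were not analysed here. Sequences come from RefSeq (GRCm38.p6) and GENCODE M21 transcripts. Intervals and totals cover counting and library spread only, since no molecular identifiers are mentioned and reads may be PCR copies. The level of 1 marker gene is not reported here.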

Additional observations from a re-analysis of the deposited data

Results flagged for a closer look

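Klre1 stood at 166 CPM in WT core H719, far above the other 4 WT core libraries at 97 to 108 CPM: the gap to its nearest neighbour was 0.841 of the group's range, beyond the 95% critical value of 0.71. This was 1 of 21 sets of a gene and a group examined, and chance flags about 1 in 20 such sets.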

How the results depend on the processing

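No member was called under any alternative run. Of 687 alternative values, 613 kept direction and side of the threshold or were counts of called members that stayed at 0. Such counts have no direction, so the 613 are not all values that kept a sign. A further 73 changed sign and 1, the Klrc1 to Klrc2 ratio between KO and WT core without KO core F318, had an exact p under 0.05 before any adjustment. The cause was not tested. Leaving out a library in turn, log2 fold changes that changed sign ran as follows. KO over WT in core: Klrd1 -0.18 to 0.14, Klrk1 -0.071 to 0.11, Klre1 -0.052 to 0.26. KO over WT in rim: Klrd1 -0.19 to 0.15, Klrk1 -1.15 to 1.08, Klrc1 -1.08 to 1.39, Klrc2 -1.7 to 0.53, Klre1 -0.62 to 1.02, Klrb1c -1.56 to 1.87. Core over rim in KO: Klrg1 -0.089 to 0.99, Klrb1c -0.03 to 0.66. Core over rim in WT: Klrk1 -0.94 to 1.3, Klrc1 -1.66 to 0.82, Klrc2 -0.66 to 1.57, Klre1 -0.2 to 1.43, Klrb1c -1.63 to 1.8. Genotype effect in core minus rim: Klrd1 -0.21 to 0.17, Klrk1 -1.08 to 1.16, Klrc1 -0.98 to 1.5, Klrc2 -1.23 to 1, Klre1 -0.94 to 0.69, Klrb1c -1.37 to 2.06. The log2 ratio of Klrc1 to Klrc2, KO minus WT in core, ran from 0.68 without KO core F322 to 1.45 without KO core F318.

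The identifiers F322, F86 and O occur in KO core and KO rim. Each of these KO core libraries was correlated with the KO rim libraries about the group means, over all genes tested, sex-linked genes included. Same-identifier correlations were 0.07, 0.04 and 0.08, all small. The highest with another identifier was 0.03 for F322 and lower for F86 and O. Each of these KO core libraries thus matched its own identifier best, a hint from the data only. The members' values given in this paragraph and the next are ones that changed sign. With the replicate block, KO over WT in core was -0.096 for Klrk1 and -0.028 for Klre1, KO over WT in rim 0.22 for Klrb1c, core over rim in KO -0.11 for Klrb1c, the genotype difference 0.008 for Klrd1, and the Klrc1 to Klrc2 log2 ratio of core minus rim in KO 0.097 (exact p = 1). The block called 562 genes between WT core and WT rim, against 777.

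In female libraries only, KO over WT in core was 0.061 for Klrd1 and -0.005 for Klrk1, core over rim in WT -0.017 for Klrc2 and the genotype difference 0.26 for Klrd1. Between WT core and WT rim, 0 members, Klrg1 included, had an unadjusted p under 0.05 by edgeR in the female libraries. Without the 5 libraries with Ncr1 above 5 CPM, KO over WT in core was -0.14 for Klrk1 and -0.28 for Klre1. In rim it was 0.13 for Klrd1, 1.06 for Klrk1, 1.37 for Klrc1, 0.5 for Klrc2, 0.99 for Klre1 and 1.84 for Klrb1c. Core over rim in KO was -0.81 for Klrg1, 0.058 for Klrc1 and -0.3 for Klrb1c, and in WT 1.3 for Klrk1, 1.06 for Klrc1 and 1.36 for Klrb1c. The genotype difference was -1.2 for Klrk1, -1 for Klrc1, -1.51 for Klrc2, -1.27 for Klre1 and -1.67 for Klrb1c. Of all genes, DESeq2 called 12, 272, 33, 1853 and 159 in the 5 comparisons, against 0, 0, 0, 777 and 0. Female libraries called 313 between WT core and WT rim, and leaving out WT rim H874 68. With 2 WT rim libraries, intervals there are wide.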

Other observations

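Klrg1 was set beside a few genes of effector cells picked for their role, not the whole terminal effector list, over the 17 libraries. S1pr5 had an r of 0.81 (rho 0.75), Zeb2 0.79 (rho 0.63), Cx3cr1 0.77 (rho 0.69) and Gzma 0.77 (rho 0.65), whereas Tbx21 had 0.07 and Eomes -0.3. Without the 2 libraries farthest from the Klrg1 median these were 0.67, 0.62, 0.59, 0.55, -0.18 and 0.03. Over the 17 libraries Klrg1 also had an r of 0.61 with Tyrobp, 0.56 with Klra9, 0.55 with Ncr1 and 0.33 with Fcer1g. The part of NK or myeloid cells in these values was not tested. Klrb1c had an r of 0.75 with Gzma and 0.62 with the adaptor gene Tyrobp, which myeloid cells also express. WT rim H877 had the highest level of Zeb2 (307 CPM), Cx3cr1 (362 CPM) and Gzma (2260 CPM) of all libraries, beside the highest Klrg1, Klrk1 and Klrc1. In WT rim H874, Tcf7, Bach2 and Il7r were at their highest, at 1110, 89.1 and 1130 CPM. These are picked examples, and other genes of the same lists peaked elsewhere. S1pr5 was highest in KO core F318 (171 CPM), Klf2 in WT rim H877 (55.2 CPM) and Id3 in KO core F319 (40.7 CPM).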
